A study of Mus musculus with 6 samples.

Results

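NADPH is the reducing agent that cells spend on building sterols, fatty acids and steroids and on keeping glutathione and thioredoxin reduced. Cytosolic NADPH comes mainly from the oxidative branch of the pentose phosphate pathway, from malic enzyme and from isocitrate dehydrogenase. In many tissues the transcription factor NRF2, which answers oxidative stress, raises the pentose phosphate genes, while SREBP, which answers sterol need, raises malic enzyme and isocitrate dehydrogenase, though malic enzyme is a known NRF2 target as well. Granulosa cells (GCs), the somatic cells that surround the oocyte, use NADPH in cholesterol and steroid synthesis. The genes described here are 8 enzymes of these routes, taken by name from the 16300 genes of the expression table. The pentose phosphate enzymes are *G6pdx*, *Pgls*, *Pgd*, *Taldo1* and *Tkt*, and the others are *Me1*, *Idh1* and *Idh2*. All 8 were in the table and passed the filter of a mean of at least 10 normalized counts, as did 16292 genes in all.

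GCs of wild type C57BL/6J mice aged 8 to 9 weeks were isolated at estrus by needle puncture, pooled over several animals, grown in serum and then serum starved. One group of 3 libraries was the control, and the other group of 3 libraries was treated with 25 nM dihydrotestosterone (DHT), an androgen that is not converted to estrogen, for 24 h. The comparison asks how the androgen changed the transcripts of cultured GCs. By the methods, the 3 libraries of a group were made from separate pools of mice. Whether a control and a DHT library shared a pool is not stated in the sources used here.

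The libraries held between 36111177 and 41928585 recovered reads. The labels name the cells as granulosa cells but the extracted material as whole ovary, so markers were checked. Of 12 granulosa markers 11 were in the table, with at least 2194 normalized counts of *Foxl2* in every library. *Fshr*, at 135 to 168, and *Amh*, at 63.3 to 196 normalized counts, were the lowest of the 11. The sum of the 11 was 212523 to 227743 in control and 189601 to 206017 in DHT, with 4 markers lower and 1 higher. Of the theca and stroma markers 6 of 8 were in the table, and their sum was higher in DHT, at 9880 to 11711 against 6265 to 8792. *Acta2*, which contractile and cultured cells also make, was the 1 of the 6 that rose. Without *Acta2*, a choice made after its value was seen, the sums overlapped, at 1664 to 2375 in DHT and 1972 to 2367 in control, and the median log2 fold change of all 6 was -0.18. The defining theca genes *Cyp17a1* and *Insl3* were not analysed here. Sums of the 5 immune, 3 endothelial, 5 surface epithelium and 7 oocyte markers in the table overlapped between groups, with at most 1138 normalized counts in any library. Among them *Csf1r*, a macrophage receptor, fell by 0.64 on the log2 scale (limma adjusted p = 0.027), with every DHT library below every control. Its call was lost with the replicate number as a block (limma adjusted p = 0.065). The immune marker *Ptprc* went the other way, at 0.72 (limma adjusted p = 0.22), with every DHT library above every control. It had at most 15.7 normalized counts in any library. DHT 2 stood apart in its oocyte markers, which summed to 36.0 normalized counts against 307 to 813 in the controls. DHT 1 and DHT 3 lay within the range of the controls, the higher of them at 619.

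Among the 8 enzymes, DHT lowered the transcripts of the pentose phosphate dehydrogenases that make NADPH and raised those of cytosolic isocitrate dehydrogenase. *Pgd* fell by 0.47 and *G6pdx* by 0.33 on the log2 scale, while *Idh1* rose by 0.46. These 3 calls held whichever library was left out, DHT 2 included. The part of the marker genes in them was not tested, and in bulk samples fewer cells of a type and less RNA per cell cannot be told apart. The remaining pentose phosphate enzymes, *Pgls*, *Taldo1* and *Tkt*, did not pass the test, and neither did *Me1* nor *Idh2*. A gene is said to have risen or fallen at an adjusted p of at most 0.05 (limma on log2 of the normalized count + 1, Benjamini-Hochberg over all genes tested). By this rule 3 of the 8 enzymes changed, beside 11.2% of all genes. The 1 that rose stands beside 6.52% of all genes that rose, and the 2 that fell beside 4.66% that fell. None of the 8 reached an absolute log2 fold change above 1, a size that 1.31% of all genes passed together with the test. The 8 log2 fold changes had a median of 0.036, and the median over all genes was -0.0052.

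The promoters of these genes were read for short motifs, because the 8 enzymes were grouped by the factors that are known to act on them. RefSeq windows of 300 bases (GRCm38.p6, 250 bases before to 50 after each start site) were found for all 8 genes, with 11 start sites in all. The core TGACNNNGC of the antioxidant response element, to which NRF2 binds, was searched on both strands and is held by 12.4% of the 32851 windows. Among the 8 enzymes, *G6pdx*, *Me1* and *Pgd* held it. The 30 bases around each match are printed 5′ to 3′ on the strand of the gene, with the matched letters in capitals.

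*G6pdx*, chrX:74428918-74428947, minus strand: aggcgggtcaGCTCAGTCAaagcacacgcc

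*Me1*, chr9:86695901-86695930, minus strand: gatgccgccgTGACTCAGCgcttctcgcgg

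*Pgd*, chr4:149166060-149166089, minus strand: atttcagagcTGACATTGCactgatcggac

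In *G6pdx* the match read on the opposite strand and lay 57 to 49 bases before the RefSeq start, inside the longer 5′ untranslated exon that GENCODE gives. In *Me1* it spanned the start site, from base -6 to base 3, and its first letters also spell the AP-1 site TGACTCA, which 5.2% of all windows hold. In *Pgd* it lay at bases 4 to 12 of the downstream start, where GENCODE places coding sequence. Of these 3 genes, *G6pdx* and *Pgd* fell with DHT and *Me1* did not pass the test. The sterol element TCACNCCAC, held by 1.24% of all windows, was in no window of the 8 enzymes.

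The NF-Y box CCAAT, often found beside sterol elements, is common and lay in 37.4% of all windows on either strand. Here it was present at a start site of *Pgd*, *Taldo1*, *Me1*, *Idh1* and *Idh2*. The stretches of *Idh1*, which rose, and of the upstream *Pgd* start, which belongs to a gene that fell, are printed in the same way.

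*Idh1*, chr1:65186613-65186642, minus strand: taccccttctaaCCAATcatcaaccggctc

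*Pgd*, chr4:149166734-149166763, minus strand: cgccgcagagacCCAATagcgtggggcatc

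The GC box GGGCGG, found in 35.7% of all windows on either strand, was in at least 1 window of each of the 8 genes. The androgen receptor hexamer AGAACA, found in 19% of all windows on either strand, was present in the windows of the upstream *Pgd* start at bases -216 and -183 and of the downstream *Idh1* start at base -223. *Idh1*, which rose, and *Pgd*, which fell, both held all 3 of these boxes, and a match of letters is not a measured binding site.

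*G6pdx* (chrX:74409483-74429194) encodes glucose-6-phosphate dehydrogenase, the first and committed step of the oxidative branch and its first source of NADPH. It had 10073, 8921 and 9449 normalized counts in the control libraries and 7797, 7403 and 7462 in the DHT libraries. Every DHT library was below every control library, and the DHT libraries lay closer together than the controls. The mean went from 9481 ± 576 to 7554 ± 213 (SD, n = 3). The log2 fold change was -0.33 (SE 0.049, 95% confidence interval -0.44 to -0.22, limma adjusted p = 0.0031). On the other strand, *Ikbkg* shares 418 bases with the exons of *G6pdx*, 13.6% of their length, and reads from the genes cannot be told apart there without strand. *Ikbkg* itself had a log2 fold change of -0.06 (limma adjusted p = 0.72).

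*Pgls* (chr8:71592176-71601092) encodes the lactonase that opens the ring made by the first enzyme and makes no NADPH. It had 2227, 2158 and 2022 normalized counts in control and 2095, 2166 and 2333 in DHT. The groups overlapped, with a log2 fold change of 0.041 (95% confidence interval -0.08 to 0.16, limma adjusted p = 0.69). Its exons share 776 bases, 20.6% of their length, with *Fam129c* on the same strand, a gene at 57.7 normalized counts in control.

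*Pgd* (chr4:149149991-149166771) encodes 6-phosphogluconate dehydrogenase, the other NADPH-making step of the oxidative branch. Its normalized counts were 20843, 15829 and 18385 in control and 12430, 13538 and 13610 in DHT. The groups did not overlap, although the controls were spread widely, with control 1 the highest and control 2 the lowest. The mean went from 18352 ± 2507 to 13192 ± 662 (SD, n = 3), and the log2 fold change corresponds to a fall of 27.7%. Its log2 fold change of -0.47 (SE 0.088, 95% confidence interval -0.67 to -0.27) was the largest fall among the 8 enzymes (limma adjusted p = 0.0098). Without the intensity trend in the limma fit, the adjusted p of *Pgd* was 0.082.

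*Taldo1* (chr7:141392199-141402968) encodes transaldolase, which moves carbon units between sugar phosphates in the non-oxidative branch. Its normalized counts were 13800, 11064 and 11168 in control and 9868, 10910 and 11187 in DHT. Control 1 stood above the other 5 libraries, which overlapped between groups. The log2 fold change was -0.17, with a 95% confidence interval from -0.36 to 0.024 (limma adjusted p = 0.26).

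*Tkt* (chr14:30548359-30574720) encodes transketolase, the thiamine-dependent partner of transaldolase. It had 18424, 16834 and 17813 normalized counts in control and 18257, 19022 and 19085 in DHT. The groups overlapped through control 1 and DHT 1. The log2 fold change was 0.088, with a 95% confidence interval from -0.011 to 0.19 (limma adjusted p = 0.25). This interval lies above that of *Pgd*, so the enzymes of the pathway did not all have the same fold change.

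*Me1* (chr9:86581371-86695953) encodes cytosolic malic enzyme, which turns malate into pyruvate and makes NADPH. It had 55880, 44299 and 54000 normalized counts in control and 52149, 52089 and 52452 in DHT. The DHT libraries were nearly equal and lay inside the range of the controls, where control 2 was low. The control mean was 51393 ± 6215 and the DHT mean 52230 ± 195 (SD, n = 3). The log2 fold change was 0.031 with a 95% confidence interval from -0.15 to 0.21 (limma adjusted p = 0.85). It was -0.073 without control 2 and -0.016 after quantile normalization, and it passed the test under none of 16 alternatives.

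*Idh1* (chr1:65158616-65186500) encodes the NADP-dependent isocitrate dehydrogenase of the cytosol and peroxisome. Its normalized counts were 42102, 36736 and 37739 in control and 49163, 54268 and 57071 in DHT. All 3 DHT libraries were above all 3 controls. The mean went from 38859 ± 2853 to 53501 ± 4009 (SD, n = 3), a rise of 37.7%. The log2 fold change was 0.46 (SE 0.069, 95% confidence interval 0.30 to 0.62, limma adjusted p = 0.0033).

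*Idh2* (chr7:80094846-80115392) encodes the mitochondrial NADP-dependent isocitrate dehydrogenase. It had 4690, 4700 and 4770 normalized counts in control and 4944, 4906 and 5145 in DHT. The DHT libraries were all above the controls, by a small margin. The log2 fold change of 0.082 (95% confidence interval 0.0026 to 0.16) did not pass (limma adjusted p = 0.18). With *G6pdx*, *Pgd* and *Idh1*, this made 4 of 8 enzymes whose groups did not overlap, beside 30.6% of all genes. An exact permutation test of 3 libraries against 3 cannot give a p below 0.1, the value it gave for each of these 4 genes.

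**Figure D1:**
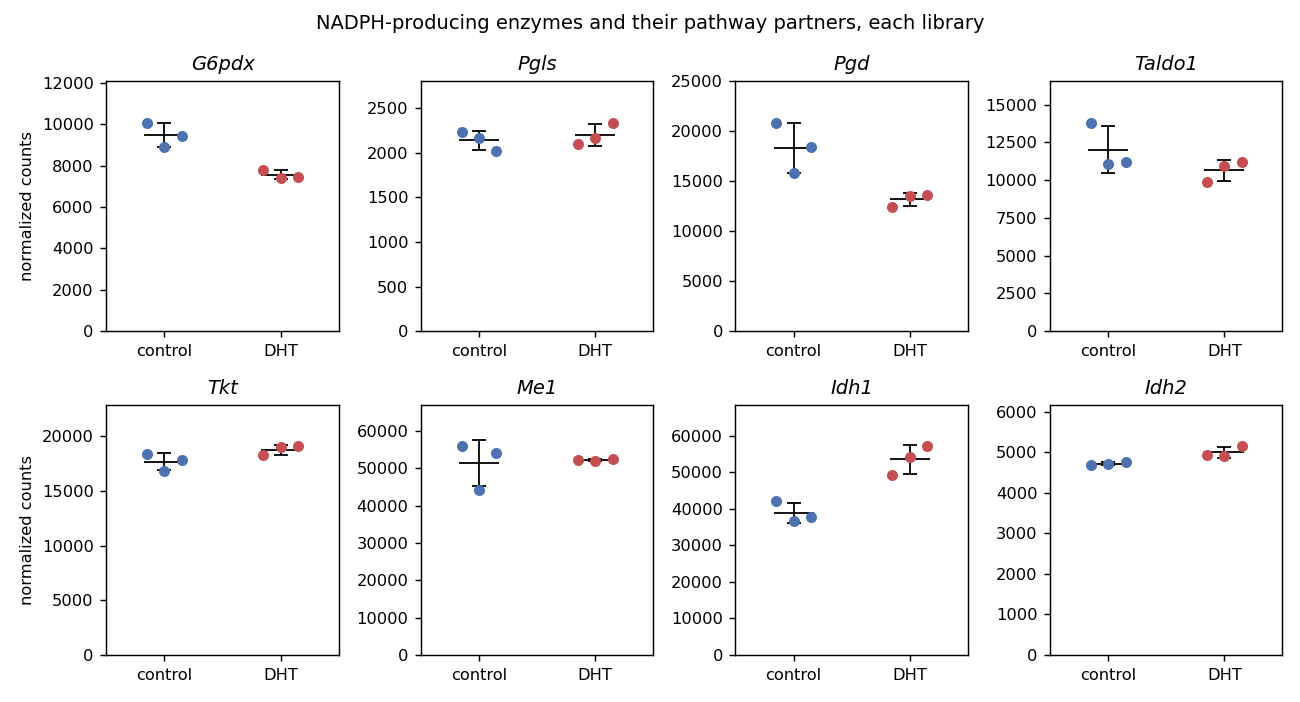
Normalized counts (vertical axis, from 0) of the 8 enzymes in each control (blue) and DHT (red) library, with the mean as a horizontal line and the SD of 3 libraries as the bar. The DHT points lie wholly below the controls for *G6pdx* and *Pgd* and wholly above them for *Idh1* and *Idh2*.

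**Figure D2:**
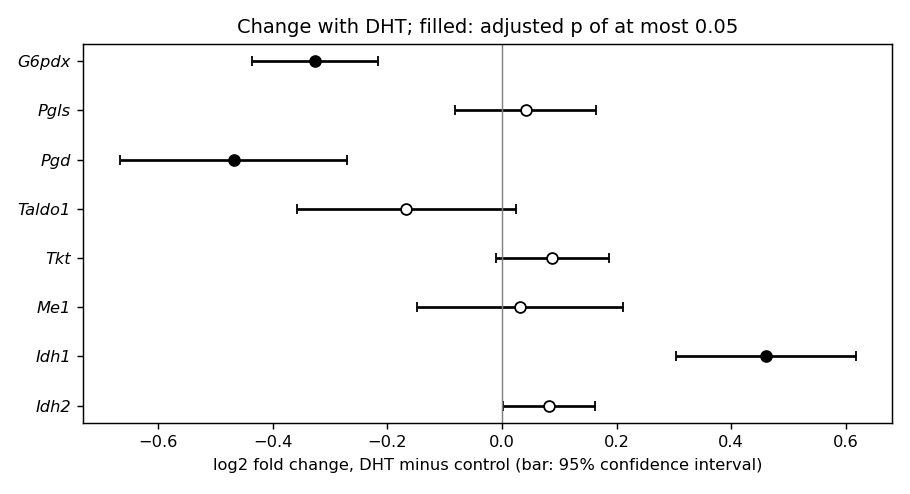
Log2 fold change (horizontal axis, DHT minus control) of the 8 enzymes with 95% confidence intervals from limma, filled where the adjusted p was at most 0.05. *G6pdx* at -0.33 and *Pgd* at -0.47 lie left of 0, *Idh1* at 0.46 lies right of it, and *Idh2* has an interval just above 0 but did not pass after adjustment.

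To compare levels between genes, the recovered reads of each gene were divided by the length of its merged exons in kilobases and scaled to the library total, which gives RPKM. In control GCs the order of levels was *Idh1* at 365 ± 29.7, *Me1* at 347 ± 42.7, *Taldo1* at 144 ± 19.9, *G6pdx* at 80.1 ± 5.35, *Pgd* at 74.1 ± 10.5, *Tkt* at 62.6 ± 3.13, *Idh2* at 47.4 ± 0.173 and *Pgls* at 14.7 ± 0.862 RPKM (SD, n = 3). The ranges of the control libraries overlapped between *Idh1* and *Me1*, between *G6pdx* and *Pgd* and between *Pgd* and *Tkt*. Compared within each control library, *G6pdx* was above *Pgd* and *Pgd* above *Tkt* in all 3. *Idh1* was above *Me1* in control 1 and control 2 and below it in control 3. The lower part of the order depended on length, since over the longest annotated transcript *Tkt* stood at 143, *Pgd* at 131 and *G6pdx* at 93.0 RPKM. In DHT libraries *Idh1* stood at 492 ± 33.5 and *Me1* at 346 ± 2.27 RPKM (SD, n = 3), with no overlap between the genes.

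Of the 8 enzymes, *G6pdx*, *Pgd*, *Me1*, *Idh1* and *Idh2* themselves reduce NADP. In the summed level per kilobase of these 5, the oxidative pentose phosphate genes *G6pdx* and *Pgd* together held 17.1%, 16.8% and 16.7% in control and 11.8%, 11.4% and 11.1% in DHT. *Idh1* held 40.0%, 41.5% and 38.5% in control and 47.1%, 49.6% and 50.5% in DHT. The groups did not overlap in either share. For *Me1* the margin was small, since it held 38.2%, 36.0% and 39.6% of the control sums and 36.0%, 34.3% and 33.5% of the DHT sums, with the highest DHT library just under the lowest control. Shares of a closed sum move together, and the level of *Me1* itself was 347 RPKM in control and 346 in DHT while *Idh1* was higher, so the lower share is not a measure of *Me1* alone. Over the longest transcripts the share of *G6pdx* and *Pgd* was 19.7% in control and 13.4% in DHT. These are shares of transcripts and not of enzyme activity or of NADPH made.

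**Figure D3:**
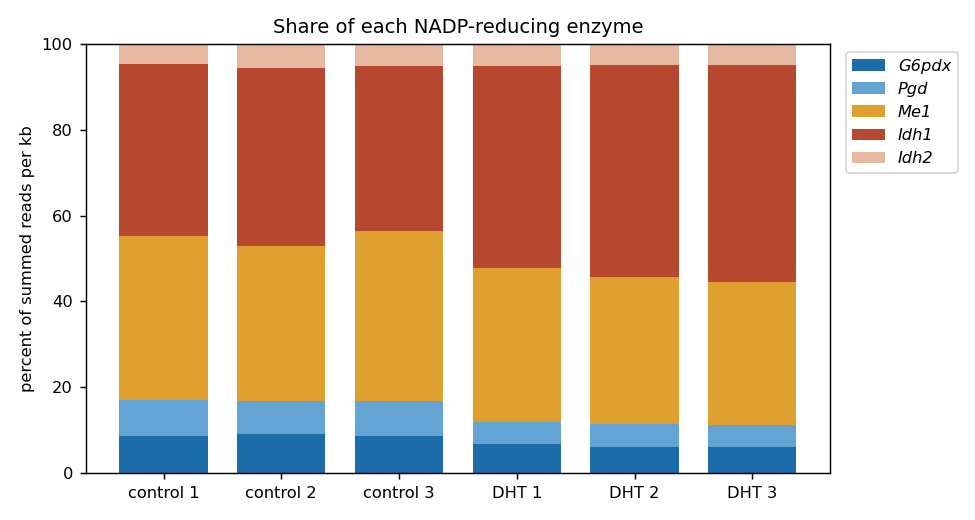
Stacked bars give the percent (vertical axis, 0 to 100) of the summed reads per kilobase of 5 NADP-reducing enzymes that each gene holds in each of the 6 libraries. The blue part, *G6pdx* with *Pgd*, goes from 16.9% of the bar on average in control to 11.5% in DHT, and the dark red part, *Idh1*, from 40.0% to 49.1%.

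Ratios within a library do not depend on its scaling. The ratio of *Idh1* to *G6pdx* normalized counts was 4.18, 4.12 and 3.99 in control and 6.30, 7.33 and 7.65 in DHT. The ratio of *Idh1* to *Pgd* was 2.02, 2.32 and 2.05 in control and 3.96, 4.01 and 4.19 in DHT. That of *Me1* to *Pgd* went from 2.81 ± 0.128 to 3.97 ± 0.199 (SD, n = 3), and was tighter within the controls than either gene alone. The ratio of *Pgd* to *G6pdx* overlapped between groups, with 1.93 ± 0.148 for the controls and 1.75 ± 0.134 for the DHT libraries (SD, n = 3). Averaged over genes, the log2 level of *Me1*, *Idh1* and *Idh2* exceeded that of the pentose phosphate enzymes by 1.15 ± 0.0465 for the controls and by 1.51 ± 0.0098 after DHT (SD, n = 3). The difference between groups was 0.36 on the log2 scale, and it was 0.22 with *Idh1* left out. The 8 genes together took 0.402% ± 0.0379 of the reads of the controls and 0.416% ± 0.0122 of those after DHT (SD, n = 3), and the groups overlapped.

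Of 10 other enzymes of the pentose phosphate and ribose routes tested, none rose and 1 fell, with a median log2 fold change of -0.039. The gene that fell was *Prps2*, which makes the activated ribose used for nucleotides (log2 fold change -0.19, limma adjusted p = 0.0185). Its call was lost with the replicate block, without the intensity trend, and without control 2, DHT 2 or DHT 3. The highest value was that of *Tktl1*, a transketolase relative at under 43 normalized counts in every library (0.53, limma adjusted p = 0.33), and the lowest that of *Shpk*, a sedoheptulose kinase (-0.26, limma adjusted p = 0.24). *Tktl2* and *G6pd2*, a relative of *G6pdx*, were not analysed here.

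Of 12 genes on a list of further routes of NADPH or NADP supply, 5 rose and 1 fell, with a median log2 fold change of 0.11. The list, called further NADPH makers below, also holds genes that do not make NADPH or NADP themselves. *Me2*, the 1 that fell, prefers NAD. *Aldh1l1*, which makes NADPH by oxidizing 10-formyltetrahydrofolate in the cytosol, had 367, 397 and 346 normalized counts in control and 676, 839 and 915 in DHT. It rose by 1.12 (SE 0.11, limma adjusted p = 4.0e-04), and the DHT libraries were all above the controls. Its mitochondrial counterpart *Aldh1l2* rose by 0.38 (limma adjusted p = 0.016). The mitochondrial folate dehydrogenases *Mthfd2* and *Mthfd2l* rose by 0.52 (limma adjusted p = 0.0021) and 0.18 (limma adjusted p = 0.047).

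*Nadk*, the kinase that makes NADP from NAD, rose by 0.22 (limma adjusted p = 0.0185). *Me2*, the mitochondrial malic enzyme that prefers NAD, had 16205, 10711 and 8344 normalized counts in control and 5371, 6605 and 6345 in DHT. It fell by 0.90 on the log2 scale (SE 0.2, limma adjusted p = 0.021), and its controls spread over a wide range. The mitochondrial NADP-linked malic enzyme *Me3* had a log2 fold change of -0.22 (limma adjusted p = 0.12). *Mthfd1* at -0.046, *Mthfd1l* at 0.12, *Nadk2* at 0.071, the transhydrogenase *Nnt* at -0.10 and glutamate dehydrogenase *Glud1* at 0.094 on the log2 scale also did not pass. The calls of *Aldh1l1* and *Mthfd2* were kept with the replicate number as a block, where those of *Aldh1l2*, *Mthfd2l*, *Nadk* and *Me2* were lost. *Nadk* was also not called without the intensity trend, control 2, DHT 2 or DHT 3, and *Aldh1l2* not without the trend, DHT 1 or DHT 2. *Mthfd2l* was also not called by DESeq2 (adjusted p = 0.11), after quantile normalization, without the intensity trend or in any of the 6 fits with a library left out.

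For the isocitrate dehydrogenase that uses NAD in the citric acid cycle, none of the 3 subunit genes passed by limma, with log2 fold changes of 0.11 for *Idh3a* (adjusted p = 0.11), 0.002 for *Idh3b* (adjusted p = 0.98) and 0.011 for *Idh3g* (adjusted p = 0.90). Genes that bring citrate and malate to these enzymes split, with 3 of 10 higher, 1 lower and a median log2 fold change of 0.057. ATP citrate lyase *Acly*, which splits cytosolic citrate, rose most, by 0.54 (limma adjusted p = 1.4e-04). Pyruvate carboxylase *Pcx* fell by 0.45 on the log2 scale (limma adjusted p = 0.0070). The others that rose, named after their values were seen, were the citrate carrier *Slc25a1* at 0.43 (limma adjusted p = 3.5e-04) and cytosolic aconitase *Aco1*, which makes the isocitrate that *Idh1* uses, at 0.28 (limma adjusted p = 0.0020).

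The genes that spend NADPH divided by use. In sterol and fatty acid synthesis 11 of 13 rose, beside 6.52% of all genes, and none fell, with a median log2 fold change of 0.57. The highest was *Tm7sf2*, a sterol reductase, with 471, 518 and 510 normalized counts in control and 1171, 1233 and 1343 in DHT (log2 fold change 1.32, limma adjusted p = 3.0e-05). The lowest was *Por*, the flavoprotein that passes electrons from NADPH to the cytochromes P450, at -0.14 (limma adjusted p = 0.052), which passed as a fall after quantile normalization. In steroid synthesis 3 of 5 rose, with a median of 0.32, led by the side chain cleavage enzyme *Cyp11a1* at 0.49 (limma adjusted p = 0.010). The lowest there was *Akr1c18* at -0.014 (limma adjusted p = 0.98), and *Cyp19a1* was not analysed here. Without the intensity trend none of these 3 steroid genes passed, and 1 of them passed without DHT 2 or without DHT 3, where *Cyp11a1* and *Fdxr* lost their calls. *Fdxr*, named after its value was seen, was lost in 5 of the 6 fits with a library left out.

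In redox defence 7 of 12 NADPH-using genes fell, beside 4.66% of all genes, and 1 rose, with a median log2 fold change of -0.30. With the replicate block 5 of the 12 fell, and without the intensity trend 3 did. The quinone reductase *Nqo1* was the lowest, and *Nox4*, an oxidase that spends NADPH to make hydrogen peroxide and is no defence enzyme, was the gene that rose. *Nox4* had 467, 611 and 428 normalized counts in control and 1031, 1077 and 1164 in DHT, a log2 fold change of 1.13 (limma adjusted p = 5.5e-04). *Txnrd1*, the cytosolic thioredoxin reductase, and *Gsr*, the glutathione reductase, are named after their values were seen. *Txnrd1* fell by 0.70 (limma adjusted p = 0.0023) and *Gsr* by 0.36 (limma adjusted p = 0.011) on the log2 scale, and *Gsr* lost its call without the intensity trend. *Txnrd1* had 40904, 29534 and 36094 normalized counts in control, so that control 1 was the highest and control 2 the lowest, as for *Pgd*.

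Known targets of these transcription factors were counted beside the enzymes as a description, on lists chosen with earlier results of these data known. Of 13 NRF2 targets outside NADPH production, 12 fell, beside 4.66% of all genes, and none rose, with a median log2 fold change of -0.56. They ranged from *Nqo1* at -1.89 (limma adjusted p = 4.0e-04) to *Ftl1*, the ferritin light chain, at -0.24 (limma adjusted p = 0.039). *Osgin1* at -0.49 was the 1 that did not pass (limma adjusted p = 0.066). Without the intensity trend 6 of the 13 fell. *Ftl1* was not called with the replicate block or in 5 of the 6 fits with a library left out, and 10 to 12 of the list fell in those 6 fits. *G6pdx* at -0.33 and *Pgd* at -0.47 lay inside the range of these targets and nearer to 0 than their median.

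Of 18 SREBP targets outside NADPH production, all 18 rose, beside 6.52% of all genes, with a median log2 fold change of 0.81. The lowest was *Elovl6*, a fatty acid elongase, at 0.44 (limma adjusted p = 0.0096), and without the intensity trend 17 rose, as *Elovl6* lost its call. *Idh1* at 0.46 was just above this low end. *Me1* at 0.031 and *Idh2* at 0.082 were below all 18, and the upper bounds of their 95% confidence intervals, 0.21 and 0.16, were also under 0.44. The lists share genes with those of NADPH use, among them *Nqo1*, *Txnrd1* and *Gsr* on the NRF2 side and *Sqle* and *Fasn* on the SREBP side, so their counts are not independent.

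**Figure D4:**
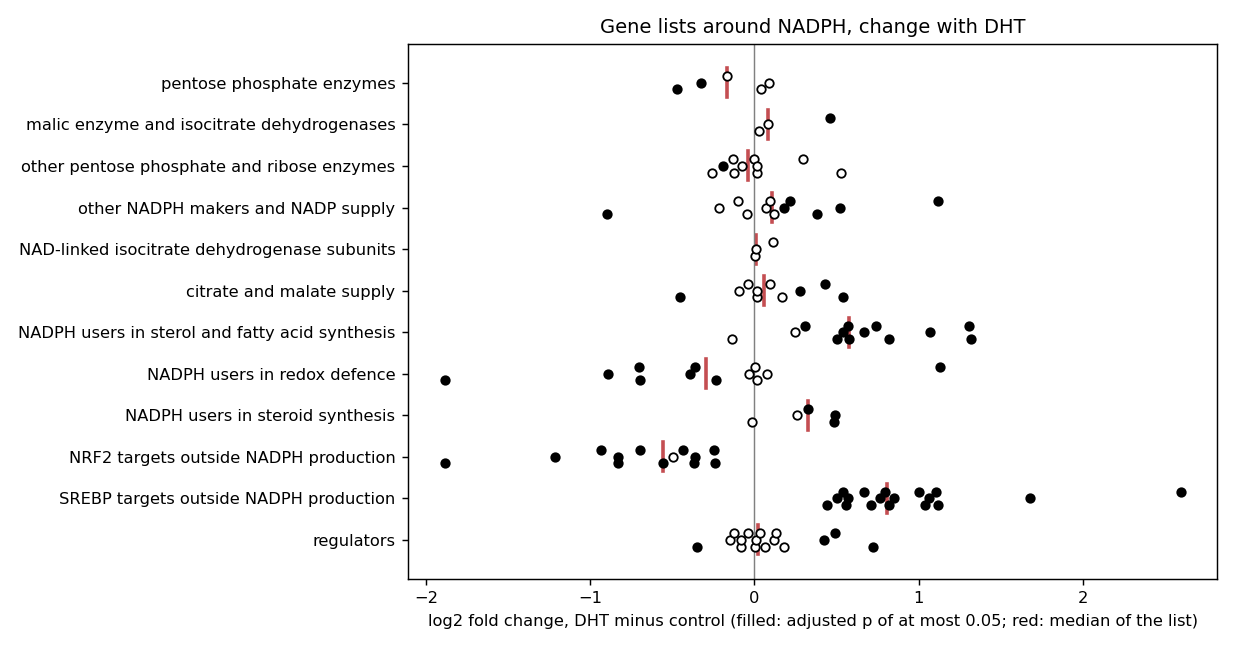
Each point is the log2 fold change (horizontal axis, DHT minus control) of a gene in 1 of 12 gene lists, filled where the limma adjusted p was at most 0.05, and the red line is the median of the list. The NRF2 targets lie left of 0 with a median of -0.56, the SREBP targets right of it with a median of 0.81, and the 8 enzymes in the top rows lie between -0.47 and 0.46.

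Among 16 regulators of these routes, 3 rose and 1 fell, with a median log2 fold change of 0.023. *Nfe2l2*, which encodes NRF2, had 8491, 8033 and 7810 normalized counts in control and 6151, 6519 and 6415 in DHT. It fell by 0.35 on the log2 scale (SE 0.043, limma adjusted p = 0.0011). *Srebf1* and *Srebf2*, which encode the SREBP proteins, rose by 0.42 (limma adjusted p = 5.6e-04) and 0.49 (limma adjusted p = 1.7e-04). *Insig1*, which holds SREBP in the endoplasmic reticulum and is itself a sterol-responsive gene, rose by 0.72 (limma adjusted p = 4.4e-04).

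The other 12 regulators did not pass. *Keap1*, which targets NRF2 for degradation, had a log2 fold change of -0.15 (limma adjusted p = 0.053) and passed as a fall after quantile normalization. *Scap* at 0.064, *Insig2* at -0.081, *Bach1* at 0.037 and *Mafg* at -0.12 on the log2 scale complete the partners of these factors. The carbohydrate-responsive factors *Mlxipl* and *Mlxip* were at 0.18 and -0.040, and *Tigar* and *Trp53*, which steer glucose toward or away from the pentose phosphate pathway, at -0.079 and 0.00079. The deacylases *Sirt2*, *Sirt3* and *Sirt5*, which act on NADPH-making enzymes, had log2 fold changes of 0.0095, 0.12 and 0.13.

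The profile of each of 3 enzymes was set beside that of 11633 genes with a mean of at least 100 normalized counts, by Pearson's r over the 6 libraries as a description. The genes most like *Idh1* were *Stat5a* (r = 0.998), *Mblac2* (r = 0.995) and *Pdlim2* (r = 0.995), which rose too. Those most like *G6pdx* were *Cachd1* (r = 0.999), *Gm21671* (r = 0.999) and *Enpp5* (r = 0.995), which fell. For *Me1* they were *Mau2* (r = 0.989), *4930430F08Rik* (r = 0.984) and *Mier1* (r = 0.983), none of which passed the test by limma. The points share library and depth, and for *Idh1* and *G6pdx* the step between groups makes up most of the pattern.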

How the data were processed

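RNA-seq was done on 6 libraries. The authors trimmed reads with Trimmomatic 0.36, mapped them to GRCm38 with STAR 2.5.2b and counted them in exons with featureCounts of Subread 1.5.2. The strand setting is not given in the sources used here. The deposited signal is the count of a gene divided by a library size factor. The deposited fold changes and p-values, and a second table with 190 of the same genes, were not used.

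Division by the common step of each library gave whole reads for 100% of values (tolerance 1e-06). Values were tested as log2(value + 1) with limma 3.58.1 (R 4.3.3, intensity trend, no block), and fold changes are on that scale. Exon lengths and positions are from GENCODE, promoters from RefSeq. All genes named on lists are counted, and by name come the 8 enzymes, the highest and lowest of each list, and all of the regulators, further NADPH makers and NAD-linked subunits. A gene that this rule selects is not reported here. Likeness names 3 genes for each of 3 enzymes. The members and lists were chosen with earlier results of these data known.

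Alternatives were pseudocounts of 0.5 and 8, no filter, a mean of at least 50, quantile and TMM scaling, no trend, the replicate block, edgeR 4.0.16 and DESeq2 1.42.0 on recovered reads, and each library left out. The code was tested on simulated data.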

Additional observations from a re-analysis of the deposited data

How the results depend on the processing

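Over 16 alternatives *G6pdx* and *Idh1* passed in all 16, with log2 fold changes of -0.37 to -0.28 and 0.39 to 0.52, and *Pgd* in 15. Without the intensity trend *Pgd* had -0.47 with a limma adjusted p of 0.082, leaving 1 enzyme that fell, and 501 genes rose and 303 fell in place of 1063 and 760. In that fit 0 genes fell among the other pentose phosphate enzymes, 2 rose and 0 fell among the further NADPH makers, 0 fell in citrate and malate supply, 3 fell in redox defence, 0 rose in steroid synthesis and 6 NRF2 targets fell. Same-numbered libraries did not deviate together (r = 0.0058, 0.067 and -0.24), so the numbers do not show pairs. With the replicate block 633 genes rose and 357 fell, 0 of the other pentose phosphate enzymes fell, and 2 further NADPH makers rose and 0 fell, while *G6pdx*, *Pgd* and *Idh1* kept their calls. DESeq2 called a rise of 1 other pentose phosphate gene, *Rpia*. With a mean of at least 50, 131 genes passed with an absolute log2 fold change above 1, and there and after quantile normalization 1 sterol gene (*Por*) and 2 regulators (with *Keap1*) fell. *Me1* was at -0.016 after quantile normalization. The cause of these shifts was not tested.

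With each library left out, 581 to 1237 genes rose, 350 to 857 fell and 138 to 286 passed with an absolute log2 fold change above 1. The low counts came without DHT 3 (581 and 350) and without DHT 2 (586 and 384). *Me1* ranged from -0.073 (without control 2) to 0.095 and *Pgls* from -0.0024 (without DHT 3) to 0.075. The median of the NAD-linked subunits ranged from -0.017 (without DHT 3) to 0.037 and that of the regulators from -0.011 (without control 2) to 0.033. Other pentose phosphate genes that rose or fell numbered 0 to 1 each way, further NADPH makers that rose 2 to 5 and fell 0 to 1, sterol genes that fell 0 to 1, steroid genes that rose 1 to 3 and regulators that fell 1 to 2. *Me2* was not called in the fits without control 2 or any 1 of the DHT libraries, and *Prps2* not without control 2, DHT 2 or DHT 3.

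The 0.36 difference of mean log2 levels was 0.32 without *G6pdx*, 0.41 without *Pgls*, 0.28 without *Pgd*, 0.42 without *Tkt*, 0.44 without *Me1*, 0.22 without *Idh1* and 0.41 without *Idh2*. Over the longest transcript the control levels were 439 for *Idh1*, 406 for *Me1*, 229 for *Taldo1*, 143 for *Tkt*, 131 for *Pgd*, 93.0 for *G6pdx*, 68.6 for *Idh2* and 20.7 RPKM for *Pgls*. The shares of *G6pdx* and *Pgd* by that length, chosen after seeing the data, were 19.7% and 13.4%.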

Other observations

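Granulosa genes outside NADPH production also differed between groups. Of 11 markers tested, 4 fell, 1 rose and 6 did not pass, with a median log2 fold change of -0.052. *Kitl*, the ligand that GCs send to the oocyte, was the lowest, with 12229, 8659 and 10840 normalized counts in control and 5925, 5952 and 5603 in DHT (log2 fold change -0.85, limma adjusted p = 0.0012). *Hsd17b1*, which makes estradiol from estrone with NADPH, was the highest at 0.48 (limma adjusted p = 0.0044). It is also 1 of the 3 steroid synthesis genes counted above as risen, and it lost its call without the intensity trend. Named after their values were seen, *Inha*, the inhibin alpha subunit, fell by 0.61 (limma adjusted p = 0.0016), *Esr2*, the estrogen receptor of GCs, by 0.36 (limma adjusted p = 0.0015) and *Foxl2* by 0.15 (limma adjusted p = 0.049) on the log2 scale. The call of *Foxl2* was lost by DESeq2 (adjusted p = 0.076) and with the replicate block (limma adjusted p = 0.13).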
